A study of Mus musculus with 2 samples.

Results

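The genes described are Trp53, which encodes the tumour suppressor p53, and 9 genes it is known to activate: Mdm2, Cdkn1a, Bax, Bbc3, Ccng1, Trp53inp1, Zmat3, Phlda3 and Sesn1. They were chosen by symbol, and all 10 were found among the 15576 genes of the deposited table. The cells were mouse BMDMs (bone marrow-derived macrophages), cultured from marrow, and their RNA was sequenced. The DCA library came from BMDMs given 100 µM deoxycholic acid (DCA), a secondary bile acid made by gut bacteria, for 24 h. The NC library came from BMDMs without it. The series title calls the cells wild type. The sources used here do not name the mouse strain, the vehicle of the NC cells or the number of mice or cultures behind each library, and do not settle whether RNA was taken straight after the exposure or a day later.

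With 1 library per group there was no replicate and no test, so no difference could be set against the spread between cultures. Values are FPKM (reads per kilobase of gene length and 1e6 reads) and the whole reads rebuilt from them, out of totals of 56.6 M reads in DCA and 59.2 M in NC (M for 1e6). Ratios are DCA over NC. Their 95% intervals are exact Clopper-Pearson intervals of the reads and cover counting error only. PCR copies add to that error. Over all genes the ratios spread 2.65 times as widely as counting error alone gives, so an interval that leaves out 1 is common here. Of the 14 macrophage markers looked at, all had a mean of at least 1 FPKM and none was at 0. They were lower in DCA in 11, with a median ratio of 0.952. Their summed level was 10852 FPKM in NC and 10940 in DCA. Most of that sum was Lyz2, with 9669 FPKM in NC and 9803 in DCA. Markers of neutrophils were higher in 16 of 16 (median ratio 1.15, summed level 3688 FPKM in NC and 4353 in DCA) and those of the B lineage in 8 of the 8 with a mean of at least 1 FPKM (1.204, and 147 and 183 FPKM summed over all 10). Of the other 2, Vpreb1 had 25 reads in NC and 48 in DCA and Igll1 75 and 35, a ratio of 0.488 (0.317 to 0.739). The part of these other cells in the values below was not tested, and in such bulk RNA fewer cells of a type and less RNA per cell cannot be told apart.

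p53 is a transcription factor that is made continuously and kept scarce by MDM2, a ubiquitin ligase that marks it for destruction. DNA damage and other stresses free p53 from MDM2. It then binds response elements near its targets, among which are genes that arrest the cell cycle, genes that start apoptosis, genes of metabolism and repair, and Mdm2 itself, which closes a feedback loop. Because p53 is controlled mainly as a protein, Trp53 mRNA is a poor guide to its activity, and the mRNA of its targets is the usual readout.

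The p53 genes were nearly alike in the DCA and NC libraries. Of the 10, all of which had a mean of 1 FPKM or more, none was higher or lower by 1.2-fold. Over the 9656 genes with such a mean, the tested genes below, 4.07% were higher and 2.01% lower by that much. The median ratio of the 10 was 1.02, beside 1.01 over all genes tested, and 6 of 10 had a ratio above 1, beside 53.5% of all. The 10 ratios ran from 0.932 for Sesn1 to 1.12 for Trp53inp1, inside the span from 0.884 to 1.18 that holds all but the outer 5% of genes on either side. The counting interval lay above 1 for Bax, Ccng1 and Trp53inp1 and below 1 for Trp53 and Sesn1, which makes 5 of 10. Among all genes tested, 25.7% had an interval above 1 and 20% an interval below 1, together 45.7%. Summed over the 10 genes there were 57856 reads in NC and 56451 in DCA, which scaled to the totals is a ratio of 1.02 (95% interval 1.01 to 1.03). This sum rests on Trp53inp1: without it, left out after its value was seen, the ratio was 0.9996 (0.987 to 1.01), from 47177 and 45058 reads.

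**Figure D1:**
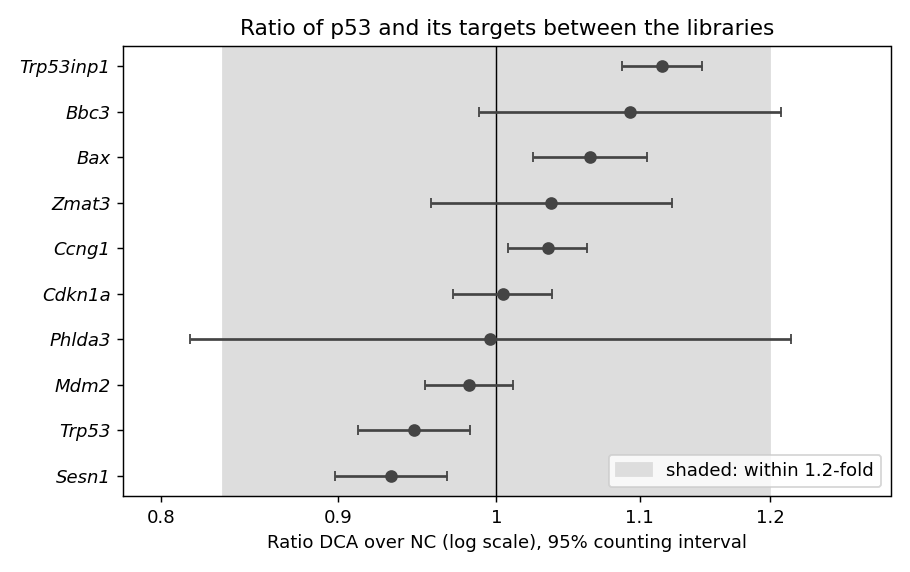
Ratio of each gene between the DCA and NC libraries (points, log axis) with 95% counting intervals (bars); the shaded band marks ratios within 1.2-fold. All 10 points lie in the band, from 0.932 for Sesn1 to 1.12 for Trp53inp1, and the interval is widest for Phlda3, the gene with the fewest reads.

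RefSeq promoter windows of GRCm38.p6, from 250 bases before to 50 after an annotated start, were available for 8 of the 10 genes, in 12 windows. Trp53inp1 and Zmat3 had no entry. The windows were searched for the p53 response element consensus, a tandem of decamers without a spacer, and for a single decamer. Both motifs are their own reverse complement, so the search covers both strands. The best matches, of at most 3 mismatches, are shown to mark where the windows come closest to the recognition sequence of p53. Binding was not tested. Capitals mark bases that fit the consensus and lower case those that do not.
Cdkn1a: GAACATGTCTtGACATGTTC
Ccng1: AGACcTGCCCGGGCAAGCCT
Bbc3: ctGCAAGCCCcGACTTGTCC
Bax: AGcaTAtCCCAGGCAAGCTT
Trp53: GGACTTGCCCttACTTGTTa
Sesn1: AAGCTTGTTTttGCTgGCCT
The Cdkn1a element (chr17:29090928-29090947, plus strand) begins 51 bases before the upstream of its annotated starts, at 29090979, and the Ccng1 element (chr11:40755462-40755481, minus strand) begins 195 bases before its start. Each has 1 mismatch to the consensus, a match found in the windows of 29 of 27025 genes (0.107%). The elements of Bbc3 (chr7:16309486-16309505, plus strand), Bax (chr7:45467090-45467109, minus strand), Trp53 (chr11:69580284-69580303, plus strand) and Sesn1 (chr10:41887266-41887285, plus strand) have 3 mismatches, and 7.204% of genes have a match of at most 3. None of the 6 lies in an exon annotated in GENCODE vM21. Mdm2 had no such element in its window and a single decamer 186 bases before its start, shown in capitals with 10 bases on either side (chr10:117710925-117710954, minus strand).
Mdm2: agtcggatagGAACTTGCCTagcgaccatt
A decamer was present for 6 of the 8 genes (Trp53, Mdm2, Cdkn1a, Bax, Ccng1 and Sesn1), beside 9.55% of all genes. Bbc3 and Phlda3 had none in these windows. The GC box GGGCGG, searched on either strand, was present for 6 of the 8 and for 38.2% of all genes. Genes with more windows have more chances of a match, and a match is a description of the sequence only. Sequence outside the windows was not searched, so a gene without a match here may have an element elsewhere.

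Trp53 (ENSMUSG00000059552, GRCm38 chromosome 11, 69580359 to 69591873, plus strand) had 9.16 FPKM in NC and 8.67 in DCA, from 5918 and 5353 reads. DCA was the lower of the libraries, with a ratio of 0.947 (0.912 to 0.982), which stood at percentile 18.3 of the ratios of all genes tested. Mdm2 (ENSMUSG00000020184, chromosome 10, 117688875 to 117710758, minus strand), the inhibitor and a target at once, had 10.4 FPKM in NC and 10.3 in DCA, from 9376 and 8798 reads. Its ratio was 0.982 (0.954 to 1.01). The interval included equality and ended at 1.01. It covers counting error only, so it does not bound the difference that other cultures could show. Per kilobase of exon, Mdm2 stood at 1.26 times the level of Trp53 in NC and 1.31 times in DCA.

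The ratios of Cdkn1a, a gene of cell cycle arrest, and of Ccng1 lay within 1.2-fold. Cdkn1a encodes p21, the inhibitor of cyclin-dependent kinases through which p53 halts the cycle (ENSMUSG00000023067, chromosome 17, 29090976 to 29100727, plus strand). It had 17.5 FPKM in NC and 17.6 in DCA, from 7307 and 7010 reads, a ratio of 1.004 (0.972 to 1.04). This was the member nearest to equality beside Phlda3, at percentile 49.2. Its exons share 273 bases (7.68%) with an annotated gene on the opposite strand, AC167363.2, so a few of its reads could belong to that gene. Ccng1, which encodes cyclin G1 and carries a close match to the response element, had 43.4 FPKM in NC and 44.9 in DCA, from 11092 and 10966 reads (ENSMUSG00000020326, chromosome 11, 40748552 to 40755311, minus strand). Its ratio was 1.03 (1.01 to 1.06). The genes with the closest matches to the element near a start, Cdkn1a and Ccng1, thus lay 0.404% and 3.47% above equality.

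Bax, Bbc3 and Trp53inp1 act in cell death, and the ratio of each lay within 1.2-fold. Bax encodes the BCL2 family protein that forms pores in the outer mitochondrial membrane (ENSMUSG00000003873, chromosome 7, 45461697 to 45466898, minus strand). It had 23.1 FPKM in NC and 24.5 in DCA, from 5299 and 5388 reads, a ratio of 1.06 (1.02 to 1.11). Its exons share 192 bases (12.2%) with those of Gm45808 on the same strand, which was listed at 0 in both libraries. Bbc3 encodes PUMA, a BH3-only protein that frees BAX and BAK from their inhibitors (ENSMUSG00000002083, chromosome 7, 16308393 to 16318205, plus strand). It had 3.60 FPKM in NC and 3.93 in DCA, from 764 and 798 reads. Its ratio of 1.09 (0.989 to 1.21) was the second highest of the 10, but the interval included equality. Trp53inp1 encodes a nuclear protein that promotes cell death and autophagy after stress (ENSMUSG00000028211, chromosome 4, 11156431 to 11174379, plus strand). It had 13.8 FPKM in NC and 15.4 in DCA, from 10679 and 11393 reads. Its ratio of 1.12 (1.09 to 1.15) was the highest of the 10 and stood at percentile 89.4 of all genes tested, and it was the 1 of the 10 past 1.1-fold. Of all genes tested, 13.2% were higher and 8.34% lower by 1.1-fold.

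The remaining targets act on signalling, RNA and metabolism. Sesn1 encodes sestrin 1, a stress protein that restrains the growth kinase mTORC1 (ENSMUSG00000038332, chromosome 10, 41809935 to 41908424, plus strand). It had 15.6 FPKM in NC and 14.5 in DCA, from 5994 and 5339 reads, a ratio of 0.932 (0.898 to 0.967). This was the lowest of the 10, at percentile 13.4. Its counting interval does not meet that of Trp53inp1, the highest. Without replicates, and for genes picked as the extremes, this does not show that their responses differ. Zmat3 encodes an RNA-binding zinc finger protein (ENSMUSG00000027663, chromosome 3, 32334792 to 32366014, minus strand). It had 1.04 FPKM in NC and 1.08 in DCA, from 1220 and 1209 reads, a ratio of 1.04 (0.957 to 1.12). Phlda3 encodes a pleckstrin homology protein that competes with AKT for membrane lipids (ENSMUSG00000041801, chromosome 1, 135766119 to 135769136, plus strand). It had 1.74 FPKM in both libraries, from 207 and 197 reads, a ratio of 0.996 (0.815 to 1.22). For Zmat3 and Phlda3 the counting interval included equality, and for Phlda3 it is wide enough to hold a 1.2-fold rise or fall.

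**Figure D2:**
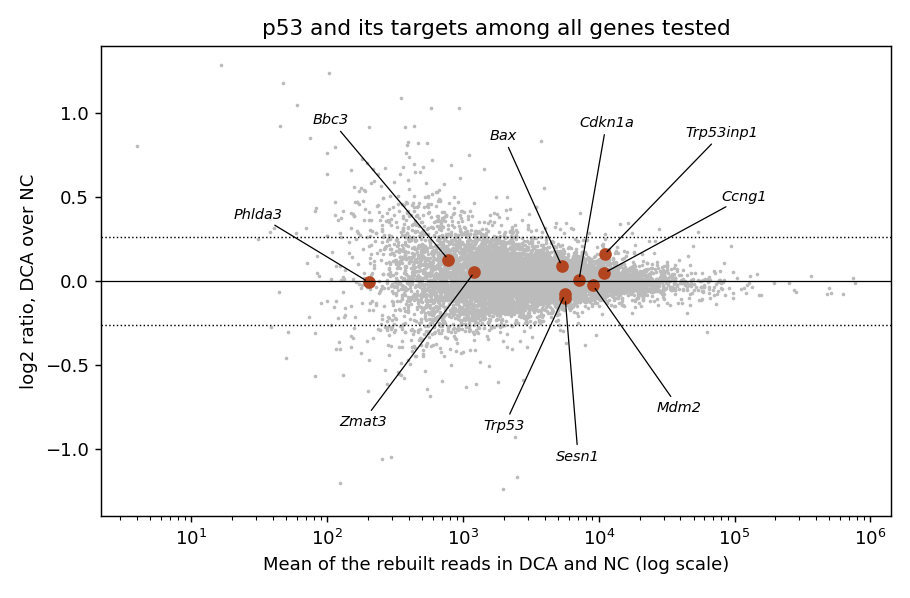
log2 ratio of DCA over NC against the mean of the rebuilt reads (log axis) for 9616 genes tested (grey points; those with a ratio outside 0.4 to 2.5, listed at 0 or without rebuilt reads are not drawn) and the 10 p53 genes (coloured points); dotted lines mark 1.2-fold. The p53 genes lie inside the dotted lines, with Trp53inp1 highest and Sesn1 lowest, and Phlda3 has the fewest reads.

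Levels were compared between genes as reads per kilobase of the union of a gene's exons and 1e6 reads, since the lengths behind the deposited FPKM were between 1.23 times (Ccng1) and 2.98 times (Mdm2) those unions. In NC the order was Bax (56.8), Ccng1 (53.3), Cdkn1a (34.7), Mdm2 (31.2), Trp53inp1 (27.9), Sesn1 (25.4), Trp53 (24.7), Bbc3 (6.08), Phlda3 (2.24) and Zmat3 (1.80). In DCA the same genes ran from 60.4 for Bax to 1.87 for Zmat3. The order was the same but for Trp53inp1 at 31.1, which stood above Mdm2 at 30.6. Exact Poisson counting intervals of neighbours overlapped for Sesn1 and Trp53 in both libraries, and for Mdm2 and Trp53inp1 and for Phlda3 and Zmat3 in DCA. The other neighbours were apart by more than counting error, and a spread between cultures was not available. The pro-apoptotic pair stood far apart from each other, Bax at 9.35 times the level of Bbc3 in NC and 9.10 times in DCA. On the deposited FPKM, by contrast, Ccng1 lay above Bax, with 43.4 against 23.1 in NC.

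**Figure D3:**
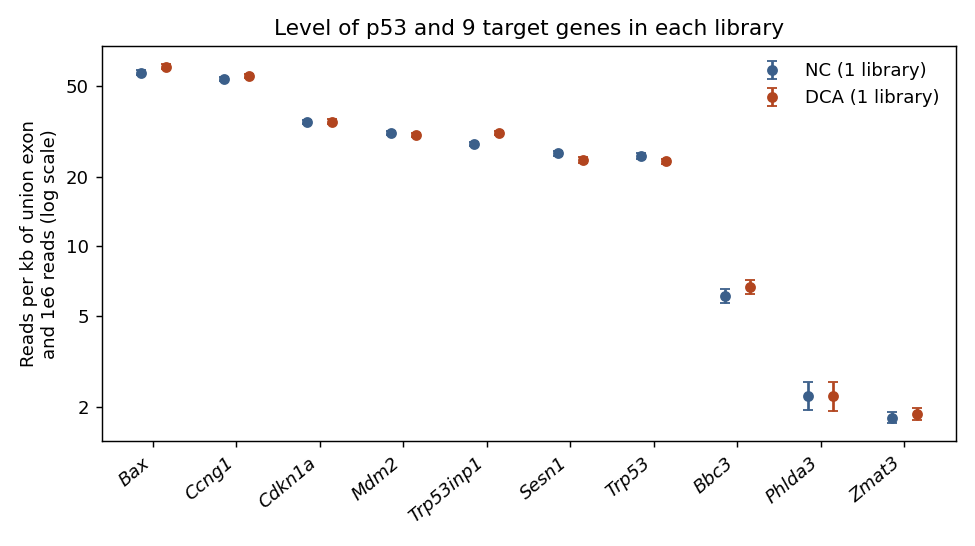
Level of each gene in the NC and DCA libraries as reads per kilobase of union exon and 1e6 reads (log axis), ordered by the NC level, with 95% exact Poisson counting intervals. The levels fall into 7 genes between 23.4 and 60.4 and 3 genes, Bbc3, Phlda3 and Zmat3, below 7, in both libraries.

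Among 50 other p53 targets from a wider list, 39 passed the filter of 1 FPKM, 8 were below it and 3 were not analysed here. Of the 39, DCA was higher by 1.2-fold in 1 and lower by 1.2-fold in 2, beside the 4.07% and 2.01% of all genes. The median ratio was 1.03, beside 1.01 over all genes tested, and 23 of 39 were above 1. The highest was Ddit4, an inhibitor of mTORC1 that other stresses also induce, with 5.22 FPKM in NC and 7.54 in DCA, from 542 and 749 reads, a ratio of 1.45 (1.29 to 1.62). Pmaip1, which encodes the BH3-only protein NOXA, followed with 3.82 FPKM in NC and 4.55 in DCA, a ratio of 1.189 (1.11 to 1.278). Thbs1, which encodes the matrix protein thrombospondin 1, had 122.0 and 140.8 FPKM, a ratio of 1.15 (1.14 to 1.17). The lowest was Slc19a2, a thiamine transporter, with 2.11 FPKM in NC and 1.63 in DCA, a ratio of 0.774 (0.705 to 0.850). Plk2, a polo-like kinase, had 5.04 and 4.06 FPKM, a ratio of 0.804 (0.756 to 0.855). Steap3, a metalloreductase of iron uptake, had 4.64 and 3.90 FPKM, a ratio of 0.840 (0.802 to 0.879). Targets of p53 thus lay on both sides of equality. The exons of Thbs1 share 3.425% of their bases with another annotated gene, and the other 5 named share none.

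Of the 27 regulators of p53 listed, 26 passed the filter, and none was 1.2-fold higher or lower. Their median ratio was 1.04 and 16 of 26 were above 1, beside 4.07% of all genes higher, 2.01% lower and 53.5% above 1. The highest was Ppm1d, the phosphatase WIP1 that switches off p53 signalling and is itself a target, with 6.57 FPKM in NC and 7.49 in DCA, a ratio of 1.14 (1.06 to 1.23). Rpl11, a ribosomal protein that can bind MDM2, had 7.30 and 8.27 FPKM, a ratio of 1.133 (1.07 to 1.19). The lowest were Chek1, Atm and Hipk2, which encode kinases. Chek1 had 1.69 FPKM in NC and 1.49 in DCA, a ratio of 0.885 (0.816 to 0.959). Atm had 2.81 and 2.499 FPKM, a ratio of 0.891 (0.849 to 0.934), and Hipk2 2.53 and 2.36 FPKM, a ratio of 0.930 (0.885 to 0.977). The related damage kinases Atr and Chek2, chosen after their values were seen, had ratios of 1.05 (0.991 to 1.102) and 0.999 (0.942 to 1.06). Cdkn2a, whose ARF product inhibits MDM2, was below the filter with 0 reads in NC and 7 in DCA. The p53 relatives Trp63 and Trp73 were not analysed here.

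Close relatives of the 10 genes gave a similar picture. Of 15 tested paralogs and functional relatives, 1 was higher by 1.2-fold and none lower, with a median ratio of 1.03 and 11 of 15 above 1. These counts stand beside the 4.07%, 2.01% and 53.5% of all genes. The one beyond the limit was Phlda1, a relative of Phlda3, with 1.67 FPKM in NC and 2.10 in DCA, from 228 and 275 reads, a ratio of 1.26 (1.06 to 1.51). Its exons share 33.0% of their bases with Gm28592, so its reads are uncertain. Pmaip1, a BH3-only gene like Bbc3, came next with the values given above. Sesn3, a relative of Sesn1, had 1.84 FPKM in NC and 2.07 in DCA, a ratio of 1.12 (1.06 to 1.19), on the other side of equality from Sesn1. Trp53inp2, a relative of Trp53inp1, was the lowest of the list, with 12.4 FPKM in NC and 11.2 in DCA, a ratio of 0.899 (0.863 to 0.936), again opposite to its relative. The BH3-only genes Bad and Bmf followed at ratios of 0.953 (0.878 to 1.03) and 0.956 (0.897 to 1.02), and Bad shares 20.5% of its exon bases with Gpr137. Mdm4, the partner of MDM2 and chosen after its values were seen, had 8.62 FPKM in both libraries, a ratio of 1.0002 (0.978 to 1.02).

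Active p53 lowers many cell cycle genes through p21 and the DREAM repressor complex. Of 20 such genes, all passed the filter and none was 1.2-fold higher or lower, with a median ratio of 1.001 and 11 of 20 above 1. Of all genes, 4.07% were higher and 2.01% lower by 1.2-fold and 53.5% above 1. The highest were Ccnb2, a mitotic cyclin, with 27.4 FPKM in NC and 29.5 in DCA and a ratio of 1.08 (1.02 to 1.14), the mitotic activator Cdc20 at 1.06 (0.996 to 1.133) and the topoisomerase Top2a at 1.04 (1.02 to 1.05). The lowest was E2f1, a transcription factor of S-phase entry, with 10.1 FPKM in NC and 8.70 in DCA, a ratio of 0.861 (0.818 to 0.906). Chek1, also in the list of regulators, came next, and then Cdk1, the mitotic kinase, at 0.940 (0.899 to 0.983).

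**Figure D4:**
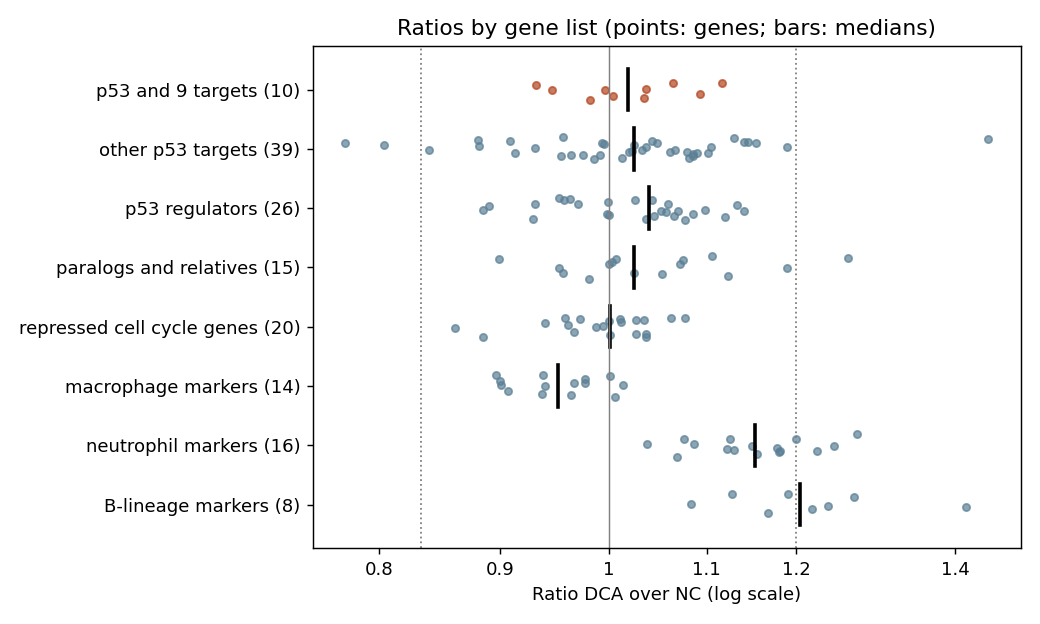
Ratio of DCA over NC (log axis) for each tested gene of each list (points) with the list's median (black bar); dotted lines mark 1.2-fold and the numbers in brackets count the genes. The medians of the p53 lists lie between 1.001 and 1.04, those of neutrophil and B-lineage markers at 1.15 and 1.204, and that of macrophage markers at 0.952.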

How the data were processed

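The authors deposited 1 table of FPKM for 15576 genes in 2 libraries, by Ensembl identifier. The tools named are HTSeq 0.6.0, STAR 2.5.0c, DESeq2 3.0, bedtools 2.17.0 and Picard 1.126, with build GRCm38, per the submitters' processing notes. The sources used here give no role for these tools, no gene length and no strand setting. Libraries were grouped by their treatment label and matched to columns by name.

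With the summed length of all transcripts of a gene in GENCODE vM21 (15548 identifiers found), 96.4% of 10524 genes with between 1 and 5000 reads in each library gave whole reads to within 0.05, and so did all 10 p53 genes. This gave the read totals. Such lengths are too large for genes with many transcripts, which lowers their FPKM but not their ratio. They can also put a gene with many reads below the filter of 1 FPKM. This was so for 1 of the other p53 targets, with 1278 reads in NC and 1145 in DCA. PCR copies are not independent molecules, so intervals cover counting error only.

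The measure was the FPKM ratio with pseudocount 0, over 9656 genes whose mean FPKM was 1 or more. A gene was counted as higher or lower at 1.2-fold. No test was possible with 1 library per group. The recovery, intervals and counts were tested on simulated reads that held counting error only. The wider spread of the real ratios was not simulated. Calculations used Python 3.11.15, numpy 2.4.6, pandas 2.3.3 and scipy 1.17.1.

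The p53 genes and all lists were chosen with earlier results of these data known. Beside the 10 genes, the text names the 3 highest and 3 lowest ratios of each list, and both p53 relatives. A gene that this rule selects is not reported here. For marker lists counts, medians and sums are given, and Vpreb1, Igll1 and Lyz2 are named with their values. Alternatives changed the pseudocount, filter, scaling, fold limit and overlapping genes. No genes were ranked by likeness to a p53 gene, since a pattern over 2 libraries is a single ratio.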

Additional observations from a re-analysis of the deposited data

How the results depend on the processing

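No paired analysis was possible because each group has 1 library. Over the 4 alternatives that can change the ratio of a gene (pseudocounts 1 and 5, scaling to the median ratio, and rescaling each library to 1e6), 39 of 40 recomputed ratios of the 10 genes stayed inside their counting intervals. The filters and the leaving out of overlapping genes change only which genes are counted. The exception was Trp53inp1 with pseudocount 5, at 1.09, since a pseudocount pulls ratios towards 1. Median scaling multiplied every ratio by 0.994 and rescaling by 0.991. That is too little to take any of the 10 out of its interval, so these outcomes were fixed in advance. Cdkn1a, at 1.004, passed to 0.998 with median scaling and 0.995 with rescaling. The summed ratio of the 10 moved from 1.02 to 0.9996 without Trp53inp1, an alternative added after seeing the data. None of the 10 passed 1.2-fold or 1.5-fold in these settings. This was fixed in advance too, since pseudocounts pull ratios towards 1, the scalings change them little and the filters leave them as they are. At 1.1-fold 1 of the 10 was higher, Trp53inp1, beside 13.2% of all genes higher and 8.34% lower.

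Among the other targets, the counts moved from 1 higher and 2 lower to 4 and 4 without a filter (over 47 genes in place of 39), 1 and 3 after rescaling to 1e6, 8 and 6 at 1.1-fold, and 0 and 0 at 1.5-fold. None was lower with pseudocount 1, pseudocount 5 or a mean FPKM of at least 5 (0 in each). Of the 26 regulators, 3 were higher and 2 lower at 1.1-fold. Beside these and the targets at 1.1-fold stand 13.2% of all genes higher and 8.34% lower. The shares of all genes in the other alternative settings were not computed. The medians of the 10 genes, the other targets and the regulators moved by less than the counting error of a typical member. That limit is loose for a median over several genes, so it does not show that the medians were stable. The median of the 10 fell from 1.02 to 1.004 with a mean FPKM of at least 5. With pseudocount 5 that of the other targets fell from 1.03 to 1.01 and that of the regulators from 1.04 to 1.01. Medians of other lists were not recomputed. Depth limits Phlda3 most, with 197 reads in DCA, and the lack of replicates limits every ratio.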
